A study of Mus musculus with 4 samples.

Results

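Genes of the chaperone and protein folding families were examined in mouse MLL-AF9 leukaemic cells treated with OHT or with EtOH. Members were taken by gene symbol: the Hspa, Hspb, Hspd, Hspe and Hsph heat shock proteins, the Hsp90 genes, the J-domain proteins Dnaja, Dnajb and Dnajc, the chaperonin subunits Cct2 to Cct8 and the protein disulfide isomerases of the Pdia series. The rule found 81 genes with 93 RefSeq transcripts among the 16545 genes and 18061 transcripts of the authors' deposited table. They were grouped by where the protein works, with 48 cytosolic genes, 9 mitochondrial genes, 17 genes of the endoplasmic reticulum (ER) and 7 genes placed elsewhere or not assigned. Of the 93 transcripts, 6 had at most 3 reads in each treatment group, taken as the floor, and 87 lay above it. Of the symbols considered for these groups, Hspb2, Hspb8, Dnajb8, Dnajc5b, Dnajc5g and Dnajc6 were not analysed here.

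The cells are a myeloid leukaemia model driven by the MLL-AF9 fusion, of C57BL/6 background, taken from mouse bone marrow and grown in liquid culture. In both groups they were Ring1a-/-, Cdkn2a-/- and carried a floxed Ring1b allele (Ring1b f/f). Ring1a and Ring1b, listed in the table as Ring1 and Rnf2, encode E3 ligases of Polycomb repressive complex 1 (PRC1), which adds ubiquitin to histone H2A at silenced genes. The control group had 2 samples treated with EtOH for 72 h, and the other group had 2 samples treated with OHT for 72 h, which the labels call RingKO. OHT is in common usage hydroxytamoxifen, a ligand for recombinases that delete floxed alleles; the labels do not name the recombinase. Cells treated with OHT but without the floxed allele were not analysed here, so the effect of OHT itself and that of the deletion cannot be told apart. Whether the samples are separate cultures or animals is not stated in the labels, so all p-values rest on a spread between samples that may be technical. In bulk samples, fewer cells of a type and less RNA per cell cannot be told apart.

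Chaperones bind unfolded or partly folded proteins and help them to reach or keep their native shape. Hsp70 proteins work in cycles of ATP hydrolysis that J-domain proteins start, Hsp90 proteins act later on kinases, receptors and other clients, chaperonins enclose a client in a chamber, and small heat shock proteins hold unfolded clients without ATP. In the cytosol many of these genes are driven by heat shock factor 1 through heat shock elements; those of the ER are driven by the unfolded protein response through ER stress elements, and those of mitochondria fold proteins after import.

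Upstream sequences of members were searched for these elements because the cytosolic and ER genes differ in them; matches are a description of the letters and not evidence of binding. RefSeq start-site windows of build GRCm38.p6 were at hand for 68 of the 81 genes, and the 250 bases before the start were read. The authors' reads were mapped to another build, mm9, so these coordinates apply to the sequences only. The triple-unit heat shock element, 3 alternating units of GAA and TTC with NN between them, searched in both orders and so on both strands, occurred in 0.466% of all 32851 windows and in windows of 3 member genes, Dnajb6, Hspd1 and Hspe1. Hspd1 and Hspe1 lie head to head and share one such site. The paired-unit form, GAANNTTC or TTCNNGAA, which is contained in the longer form, was searched after the sequences had been seen. It occurred in 12.8% of all windows and in 20.9% of the 86 member windows, which belong to 16 genes: Hspb1, Hspb3, Hspb6, Hspa1a, Hspa1b, Hsph1, Hspd1, Hspe1, Cct2, Cct5, Dnaja1, Dnaja4, Dnajb4, Dnajb6, Dnajc10 and Dnajc27. Their fold changes lay on both sides of 0. Below are the 250 bases before the start of Hspb1, the member with the largest change, on the plus strand at chr5:135887669-135887918, and of the Hspe1 side of the shared promoter, on the plus strand at chr1:55087898-55088147. Capitals mark the paired-unit matches of Hspb1 and the 18 bases covered by the overlapping triple-unit matches of Hspe1.
Hspb1: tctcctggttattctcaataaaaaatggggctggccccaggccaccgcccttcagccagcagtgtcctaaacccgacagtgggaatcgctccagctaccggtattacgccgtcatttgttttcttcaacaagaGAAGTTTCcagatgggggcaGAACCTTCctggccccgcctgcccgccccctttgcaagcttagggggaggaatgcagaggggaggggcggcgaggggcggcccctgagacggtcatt
Hspe1: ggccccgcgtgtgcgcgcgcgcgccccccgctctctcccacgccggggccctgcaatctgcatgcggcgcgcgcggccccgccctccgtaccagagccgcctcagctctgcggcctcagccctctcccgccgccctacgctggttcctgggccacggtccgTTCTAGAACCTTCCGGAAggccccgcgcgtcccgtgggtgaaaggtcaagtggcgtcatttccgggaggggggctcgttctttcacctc

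The ER stress element, searched as CCAAT and CCACG separated by 9 bases on either strand, occurred in 0.113% of all windows. Among the 16 ER genes with a window it occurred in 4, namely Hspa5, Pdia6, Dnajc3 and Hsp90b1, and in no window of the other member genes. These genes are shown because they are the members with a match. The sequences are the 120 bases before the start on the plus strand of Hspa5 at chr2:34771970-34772089, Pdia6 at chr12:17266469-17266588 and Dnajc3 at chr14:118937812-118937931, and the 250 bases before the start of Hsp90b1 on the minus strand at chr10:86705445-86705694. Capitals mark the element, which Hsp90b1 has once in each orientation.
Hspa5: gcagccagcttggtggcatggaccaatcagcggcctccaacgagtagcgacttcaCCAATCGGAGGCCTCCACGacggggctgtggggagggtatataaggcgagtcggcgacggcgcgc
Pdia6: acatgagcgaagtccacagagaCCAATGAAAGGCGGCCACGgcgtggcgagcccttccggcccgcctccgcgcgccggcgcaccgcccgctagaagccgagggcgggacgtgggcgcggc
Dnajc3: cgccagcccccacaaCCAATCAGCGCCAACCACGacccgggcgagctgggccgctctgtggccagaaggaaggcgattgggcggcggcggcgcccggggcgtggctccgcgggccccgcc
Hsp90b1: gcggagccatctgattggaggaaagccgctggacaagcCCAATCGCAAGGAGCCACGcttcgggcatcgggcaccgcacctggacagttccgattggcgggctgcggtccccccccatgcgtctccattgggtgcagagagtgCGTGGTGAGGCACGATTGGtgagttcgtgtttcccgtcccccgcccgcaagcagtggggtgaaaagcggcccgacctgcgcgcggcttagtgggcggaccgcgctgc

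Values per library were obtained by solving each deposited group mean for the whole reads of its 2 libraries. Letters A and B name the solved libraries within a group and do not correspond to the labels' replicate numbers. They held 6255320 and 3841243 reads for EtOH and 5687967 and 4509718 reads for OHT, and a normalised read is a solved read divided by the size factor of its library. The 10 markers of myeloid leukaemic cells were all above the floor and summed to 2922 and 2967 normalised reads in EtOH and 4695 and 3798 in OHT. None was called, beside 5.48% of all transcripts, and 8 lay above 0. In the authors' deposited table Csf1r was at 177 and 1110, Spi1 at 1353 and 1460 and Cebpa at 1097 and 1206 in EtOH and OHT. Hoxa9 and Ptprc lay below 0, at log2 fold changes of -0.22 and -0.17 there, and Kit had low means of 2.72 and 5.03. Mpo differed widely within groups, at 18.2 and 160 normalised reads in EtOH and 351 and 50.2 in OHT. Markers of T cells, B cells and erythroid cells summed to at most 8.40 normalised reads in any library. All 8 measured macrophage markers were higher in both OHT libraries than in both EtOH libraries, beside 29.3% of all transcripts above the floor. The authors' deposited table called 4 of them higher, beside 3.62% of all transcripts. These were C1qb, C1qc, Marco and C1qa, at log2 fold changes of 5.64, 5.20, 4.57 and 3.44. The 8 macrophage markers summed to 2630 and 986 normalised reads in EtOH and 5017 and 5604 in OHT. Emr1, not called, was the largest part of these sums, and Csf1r is on this list and the leukaemic list. Of 5 early stress response genes, the authors' deposited table called 3 higher, namely Fos, Jun and Atf3, beside 3.62% of all transcripts. All 5, with Egr1 and Fosb, summed to 1233 and 663 normalised reads in EtOH and 2185 and 2476 in OHT. The 3 epithelial markers summed to 107 and 155 in EtOH and 312 and 629 in OHT, and none was called in the authors' deposited table. Of the 3 stromal markers Col1a1 was called higher in the authors' deposited table, beside 3.62% of all transcripts. The 3 summed to 3.32 and 9.11 in EtOH and 33.6 and 27.9 in OHT, while Col1a2 and Pdgfra were at the floor. These shifts run alongside all results given here, and their part in them was not tested. Rnf2 had a mean of 636 with EtOH and 757 with OHT in the authors' deposited table (log2 fold change 0.25, adjusted p = 1). Reads over the whole transcript do not show the state of a deleted stretch, so this does not check the labels. Ring1 and Cdkn2a, which the cells of both groups lack by genotype, also had reads, with means of 68.3 and 122 for Ring1 and 49.8 and 48.5 for Cdkn2a in the authors' deposited table.

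Few chaperone transcripts passed a test, and 1 of them, Hspb1, by a wide margin. Of the 93 transcripts in the authors' deposited table, 1 was called at an adjusted p under 0.05, beside 5.48% of all transcripts. It was higher with OHT, beside 3.62% of all transcripts called higher, and none was lower, beside 1.85%. A p under 0.05 before adjustment was listed there, in the authors' deposited table, for 9 of the 93, beside 14.5% of all transcripts. A limma-voom fit of the solved reads, with Benjamini-Hochberg adjustment over 11338 transcripts, called 5 of 72 tested member transcripts, beside 15.2% of all. Of these, 2 were higher, beside 9.72% of all, and 3 lower, beside 5.49% of all. The higher ones were Hspb1 and Dnaja4, and the lower ones Dnajc9, Hspbap1 and Dnajc2. All 5 encode cytosolic or nuclear proteins of the cytosolic group. In that fit 16 of the 72 had an unadjusted p under 0.05, beside 31.3% of all transcripts. Leaving out EtOH library A gave 3 member calls higher and 7 lower, beside 14.1% and 9.48% of all transcripts. Leaving out EtOH library B gave 1 and 1, beside 7.55% and 5.79%. Leaving out OHT library A gave 1 and 0, beside 795 and 133 of all 11338 transcripts, and leaving out OHT library B gave 1 and 3, beside 9.23% and 3.28%. Scaling to total reads ended all 3 lower calls, beside 4.30% of all transcripts lower.

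The compartments had different median fold changes, to be read with the library medians given below. Over transcripts above the floor, the median log2 fold change in the authors' deposited table was -0.24 for 51 cytosolic, -0.58 for 9 mitochondrial and 0.10 for 19 ER transcripts, beside -0.00 for all 14997 transcripts. Among transcripts chosen by EtOH reads, the median was -0.13 for the 8684 with at least 50 EtOH reads and under 800 reads per kb. Among transcripts with at least 50 EtOH reads, it was 0.08 under 50 reads per kb and -0.13 at 50 to 200. Further up it was -0.23 at 200 to 400, -0.22 at 400 to 800, -0.21 at 800 to 1200 and -0.18 above. The filter and the bins use EtOH reads alone, which favours transcripts high in EtOH and so values below 0. How far this moved these medians was not tested. The cytosolic transcripts had EtOH means from 1.48 to 4358 and were not matched to other transcripts by read density. Below 0 lay 32 of the 51 cytosolic, 8 of the 9 mitochondrial and 7 of the 19 ER transcripts, beside 50.2% of all transcripts. Both OHT libraries were below both EtOH libraries for 18 cytosolic, 6 mitochondrial and 2 ER transcripts, beside 29.2% of all transcripts. Both were above for 11 cytosolic, 0 mitochondrial and 4 ER transcripts, beside 29.3% of all. Thus 66.7% of the mitochondrial transcripts, 35.3% of the cytosolic and 10.5% of the ER transcripts were lower with no overlap of the groups. These are descriptions with no test of the difference between compartments. When 1 library at a time was left out, the median ranged from -0.32 to -0.10 for cytosolic, from -0.73 to -0.39 for mitochondrial and from -0.01 to 0.25 for ER transcripts. The SD of library medians, pooled within groups, was 0.22 for cytosolic, 0.22 for mitochondrial and 0.26 for ER transcripts. This SD describes median log2 levels and does not measure the spread of the median fold changes. In size, the cytosolic median fold change is close to this SD and the ER one is below it. Library medians of log2 level were, for cytosolic transcripts, 6.99 and 6.76 in EtOH and 7.26 and 6.87 in OHT, so the groups overlapped. The cytosolic OHT median of 7.26 lay above both EtOH medians and that of 6.87 between them, although the median fold change was -0.24. Library medians were 8.28 and 8.63 against 7.74 and 8.02 for mitochondrial transcripts, with both OHT medians lower. For ER transcripts they were 8.13 and 7.64 against 8.55 and 8.39. Both ER medians were thus higher with OHT, although the median fold change was only 0.10. Medians of level and of fold change therefore differed in size or direction for these 2 compartments.

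**Figure D1:**
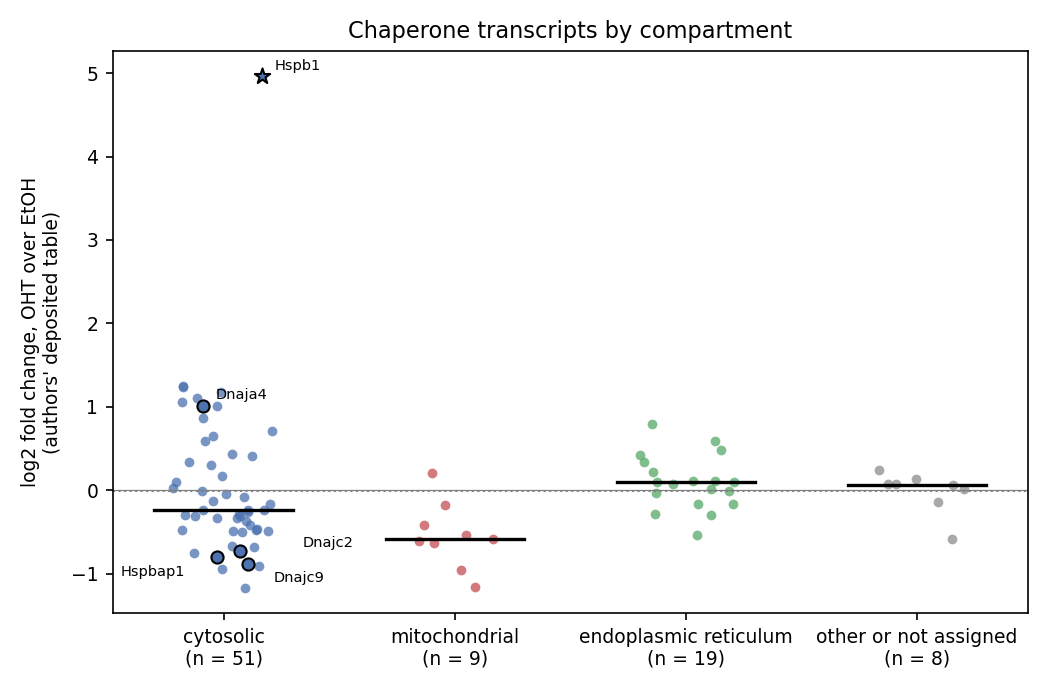
Each point is 1 member transcript above the floor, at its log2 fold change of OHT over EtOH in the authors' deposited table (vertical axis), by compartment (horizontal axis, with the number of transcripts); points are spread sideways only for legibility. Black bars are medians, the dotted line is the median of all transcripts, the star is the transcript called in the authors' deposited table and ringed points are those called by limma-voom alone: the mitochondrial median lies at -0.58 and Hspb1 at 4.96.

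Hspb1, the small heat shock protein also known as HSP27, was the only member called higher by both tests. It had 0 and 2 reads in EtOH libraries A and B and 63 and 83 in OHT libraries A and B, or 0 and 2.60 against 52.9 and 92.7 normalised reads. It was thus nearly absent from both control libraries and present in both OHT libraries, without overlap. Summed over libraries and scaled for size factors, the ratio was 69.1 with an exact 95% interval of 18.8 to 576 that covers counting error only. In the authors' deposited table its mean went from 2.37 to 73.8 (log2 fold change 4.96, adjusted p = 8.63e-05), and limma-voom gave 5.89 ± 0.90 (SE, Benjamini-Hochberg adjusted p = 0.00401). With so few control reads the fitted size was imprecise: leaving out EtOH library A gave 4.40 by limma-voom and leaving out EtOH library B 7.37, with a call in both. The Hspb1 promoter printed further up holds both of its paired-unit elements within 120 bases of the start.

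The other genes with an Hspb symbol and number had no call. Of the 4 above the floor, 3 had a log2 fold change above 0 and 1 below in the authors' deposited table, with a median of 0.41. The 3 were Hspb11 and the low-read Hspb7 and Hspb9, and the 1 below was Hspb6. Hspb11, whose protein is a part of the intraflagellar transport machinery despite its name, had 18.2 and 23.4 normalised reads with EtOH and 46.2 and 55.8 with OHT; limma-voom gave 1.29 ± 0.43 (SE, adjusted p = 0.0700). Both OHT libraries were the higher ones, but the difference missed the threshold. Hspb6, known as HSP20, was lower in both OHT libraries at 27.7 and 26.8 against 44.0 and 59.9 normalised reads, with limma-voom at -0.87 ± 0.41 (SE, adjusted p = 0.178). Hspb7 and Hspb9 stayed under 8 normalised reads in every library, and Hspb3 was at the floor.

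Hspbap1, which binds Hspb1 and carries a JmjC domain, moved the other way. Its normalised reads were 556 and 492 with EtOH and 248 and 352 with OHT. Both OHT libraries were the lower ones. Limma-voom called it lower at -0.85 ± 0.24 (SE, adjusted p = 0.0435), while the authors' deposited table gave 0.0719 as its adjusted p. Without EtOH library A the limma-voom adjusted p was 0.0565 and without OHT library A it was 0.494.

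**Figure D2:**
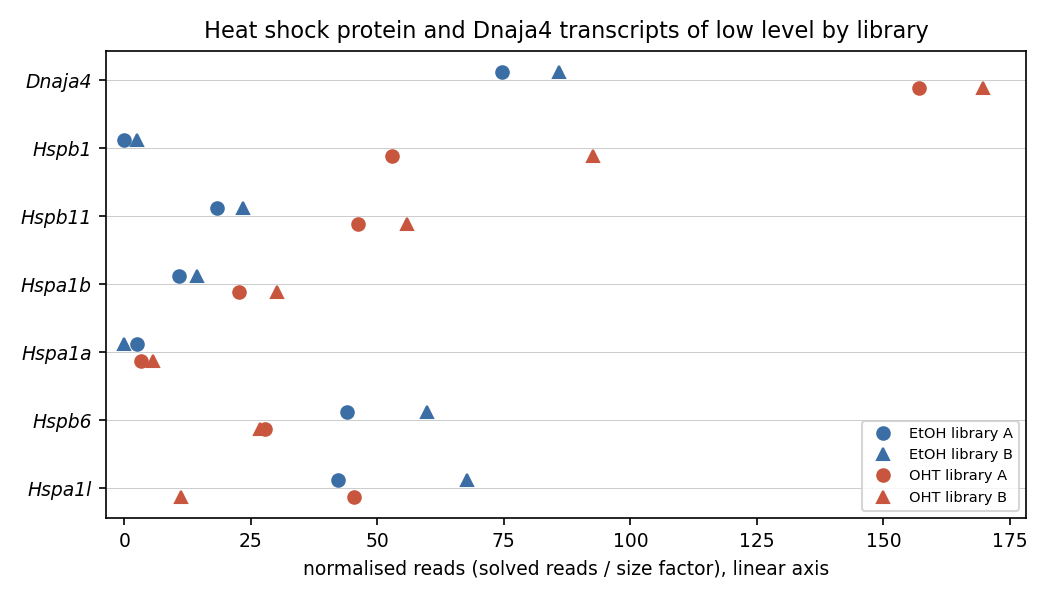
Normalised reads (horizontal linear axis) in the 4 libraries of Hspb, Hsp70 and Dnaja4 transcripts of low level, chosen after their values were seen. Circles are libraries A, triangles libraries B, blue EtOH and red OHT. Hspb1 lay at 0 and 2.60 in EtOH and at 52.9 and 92.7 in OHT, and Dnaja4 at 74.6 and 85.9 against 157 and 170, while Hspa1l overlapped between the groups.

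The cytosolic Hsp70 family was led by Hspa8, the constitutive Hsc70, and showed no call in either test. Hspa8 had 2939 and 4143 normalised reads with EtOH and 2780 and 3692 with OHT; the groups overlapped and limma-voom gave -0.12 ± 0.24 (SE, adjusted p = 0.761). The stress-inducible pair Hspa1a and Hspa1b, near-identical copies whose reads may have been split, was low in all libraries. Hspa1b had 10.8 and 14.3 normalised reads with EtOH and 22.7 and 30.1 with OHT. Its scaled read ratio was 2.13 (exact 95% interval 1.29 to 3.60, counting error only), and limma-voom gave 1.05 ± 0.51 (SE, adjusted p = 0.191). Hspa1a had 3 reads over both EtOH libraries and 9 over both OHT libraries, and the scaled ratio was 2.84 (0.708 to 16.3). Both were higher in each OHT library, yet neither passed a test.

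Nucleotide exchange factors of the Hsp110 branch had no call in either test. Hspa4 had 2693 and 2663 normalised reads with EtOH and 2095 and 2452 with OHT, so that both OHT libraries were lower, with limma-voom at -0.24 ± 0.20 (SE, adjusted p = 0.446). Hsph1, known as HSP105 and a target of heat shock factor 1, overlapped at 1200 and 999 against 928 and 1207. Hspbp1, an exchange factor of Hsp70, was lower in both OHT libraries at 301 and 349 against 433 and 477 (limma-voom -0.49 ± 0.22 SE, adjusted p = 0.167). Across the 12 Hsp70 and Hsp110 transcripts of the cytosol above the floor, the median log2 fold change was -0.09 in the authors' deposited table.

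The ribosome-associated pair of Dnajc2 and Hspa14, a J-domain protein and its Hsp70 partner that act on nascent chains, had lower values with OHT. Dnajc2, which is also known to bind ubiquitinated histone H2A, had 1333 and 1628 normalised reads with EtOH and 835 and 955 with OHT. Hspa14 had 784 and 966 with EtOH and 541 and 551 with OHT for its main transcript. The groups did not overlap for either gene. Limma-voom called Dnajc2 lower at -0.72 ± 0.21 (SE, adjusted p = 0.0435) and gave -0.67 ± 0.21 (SE, adjusted p = 0.0584) for Hspa14, which missed the threshold. Dnajc2 missed the threshold without EtOH library B, OHT library A or OHT library B (adjusted p = 0.111, 0.35 and 0.0988), and Hspa14 passed it without EtOH library A (adjusted p = 0.0185). The authors' deposited table lists adjusted p-values of 0.135 and 0.222 for them. The second Hspa14 transcript, which is non-coding, was at 126 and 107 against 70.5 and 74.8.

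Of the other J-domain proteins that recruit Hsp70 in the cytosol or nucleus, Dnajc9 was called lower and Dnaja4 higher by limma-voom. Dnajc9, a co-chaperone of histones, had 580 and 785 normalised reads with EtOH and 362 and 378 with OHT. Both OHT libraries were lower, and limma-voom called it lower at -0.86 ± 0.23 (SE, adjusted p = 0.0342). Dnaja4, a type I J-domain protein, had 74.6 and 85.9 normalised reads with EtOH and 157 and 170 with OHT. Both OHT libraries were higher, and limma-voom called it higher at 1.03 ± 0.30 (SE, adjusted p = 0.0433). The authors' deposited table gave adjusted p-values of 0.0738 for Dnajc9 and 0.0912 for Dnaja4. Dnaja4 missed the limma-voom threshold whenever any 1 library was left out, with adjusted p from 0.0545 to 0.183, and Dnajc9 missed it without EtOH library B, OHT library A or OHT library B, with 0.0706, 0.219 and 0.106.

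The remaining cytosolic J-domain transcripts were spread to both sides of 0. Of the 19 above the floor, 9 had a log2 fold change above 0 and 10 below in the authors' deposited table, with a median of -0.01. The main Dnajb6 transcript lay at 0.10 there and its minor one at -1.17, the lowest of all members above the floor. That minor transcript had 27.4 and 54.7 normalised reads with EtOH and 24.4 and 11.2 with OHT (limma-voom -1.09 ± 0.56 SE, adjusted p = 0.210). Dnajb1, the classical Hsp40 and a heat shock factor 1 target, overlapped between the groups at 598 and 503 against 533 and 585 normalised reads. Dnaja2 overlapped as well, at 1587 and 1790 against 1555 and 1643. Dnajc21, which takes part in ribosome maturation, was lower in both OHT libraries at 366 and 399 against 514 and 564, and Dnajc7, a co-chaperone of Hsp70 and Hsp90, at 1010 and 1025 against 1226 and 1339. Neither passed limma-voom, with adjusted p-values of 0.146 and 0.279.

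Hsp90ab1 and Hsp90aa1, the constitutive and the inducible cytosolic Hsp90, had the highest EtOH means of all members. Hsp90ab1 had 3583 and 5131 normalised reads with EtOH and 3326 and 4473 with OHT. Hsp90aa1 had 3395 and 4611 with EtOH and 2820 and 3849 with OHT. The groups overlapped for both genes, and library B was above library A in both groups. Limma-voom gave -0.15 ± 0.24 (SE, adjusted p = 0.712) for Hsp90ab1 and -0.26 ± 0.24 (SE, adjusted p = 0.489) for Hsp90aa1. They are close paralogs, and how reads common to them were counted is not given in the sources used here.

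All 7 subunits of the TRiC/CCT chaperonin measured under the names Cct2 to Cct8, without the testis form Cct6b, had lower means with OHT. This ring complex folds actin, tubulin and other cytosolic proteins. Their log2 fold changes in the authors' deposited table lay between -0.50 and -0.31 with a median of -0.37, and none was called by either test. Cct6a was the furthest down, at 1894 and 2408 normalised reads with EtOH and 1317 and 1718 with OHT (limma-voom -0.51 ± 0.22 SE, adjusted p = 0.155). Cct4 had 1872 and 2246 with EtOH and 1242 and 1750 with OHT, and Cct8 had 1974 and 2529 with EtOH and 1507 and 1873 with OHT. These 3 subunits did not overlap between the groups. Cct2 had 2185 and 2931 with EtOH and 1712 and 2254 with OHT, and Cct3 had 1858 and 2243 against 1395 and 1915. Cct5 had 1795 and 2357 against 1415 and 1930, and Cct7 had 1862 and 2367 against 1435 and 1911. In these 4 subunits OHT library B lay above EtOH library A, so the groups overlapped. Tcp1, the subunit that the symbol rule does not take, was at 2172 and 1696 in the authors' deposited table (log2 fold change -0.36, adjusted p = 0.808).

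Mitochondrial members had the lowest median of the compartments, without a call in the authors' deposited table or in limma-voom with its filter on low counts; without that filter Hspa9 was called lower (adjusted p = 0.0288), beside 4.43% of all transcripts. Hspa9, the mitochondrial Hsp70 mortalin, had 3224 and 4047 normalised reads with EtOH and 1990 and 2761 with OHT. Hspd1, the Hsp60 chaperonin, had 2531 and 3216 with EtOH and 1658 and 2304 with OHT. Dnajc11, a J-domain protein tied to the inner membrane organising complex, had 1085 and 1230 with EtOH and 722 and 775 with OHT. In all 3 both OHT libraries were below both EtOH libraries. Limma-voom gave -0.62 ± 0.23 (SE, adjusted p = 0.0946) for Hspa9, -0.55 ± 0.23 (SE, adjusted p = 0.139) for Hspd1 and -0.63 ± 0.20 (SE, adjusted p = 0.0619) for Dnajc11. Without OHT library B limma-voom called Hspa9 lower (adjusted p = 0.0446), and without EtOH library A it called Dnajc11 lower (adjusted p = 0.0347).

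Hspe1, the Hsp10 lid of the Hsp60 chamber whose promoter is shared with Hspd1, had 540 and 788 normalised reads with EtOH and 442 and 553 with OHT. Here OHT library B exceeded EtOH library A by a little, so the groups overlapped (limma-voom -0.39 ± 0.25 SE, adjusted p = 0.311). The import-motor J-domain genes Dnajc15 and Dnajc19 were lower in both OHT libraries, Dnajc15 at 213 and 258 against 310 and 396 and the main Dnajc19 transcript at 37.8 and 34.6 against 52.2 and 89.8; both were called only without EtOH library A (adjusted p = 0.0475 and 0.0434). Dnaja3, a partner of Hspa9 in the matrix, was lower at 8.40 and 12.3 against 31.5 and 16.9. Dnajc30 overlapped at 202 and 162 against 189 and 221. Dnajc28 was at the floor.

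**Figure D3:**
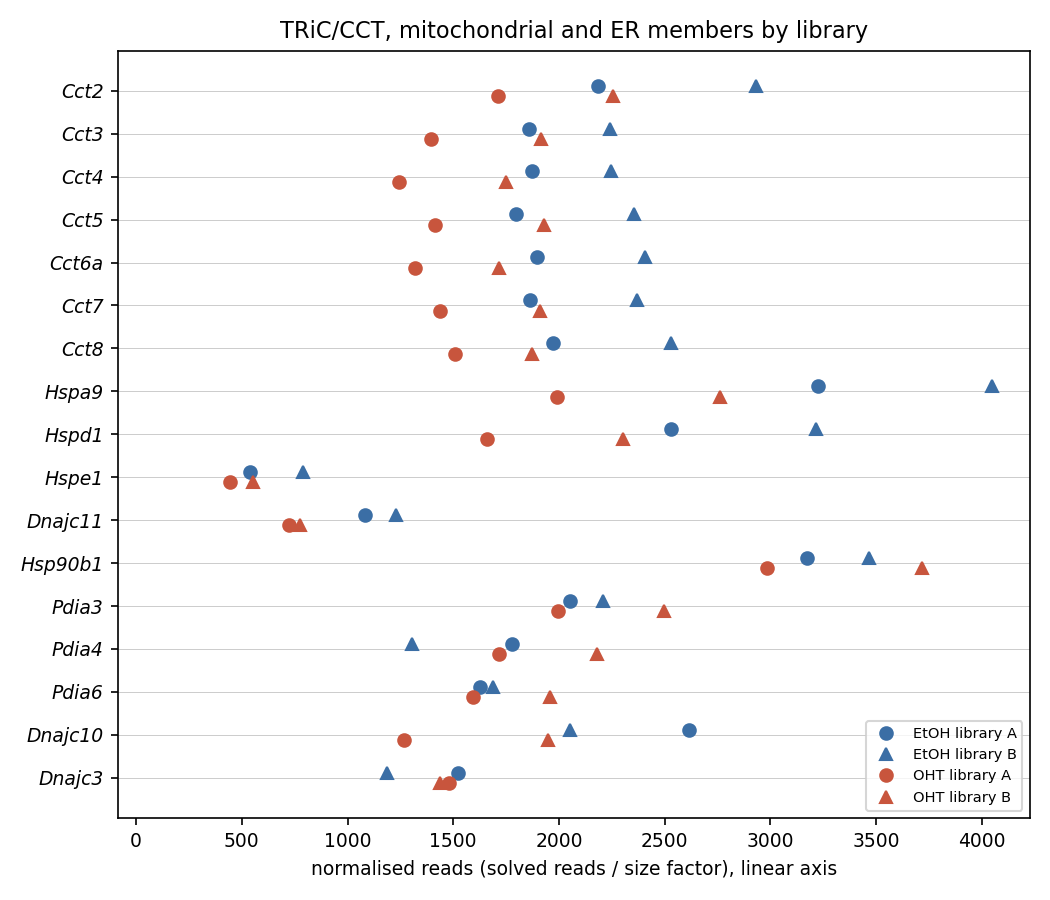
Normalised reads (horizontal linear axis) of TRiC/CCT subunits, mitochondrial and ER members in the 4 libraries; circles are libraries A, triangles libraries B, blue EtOH and red OHT. For Hspa9, Hspd1 and Dnajc11 both red symbols lie left of both blue ones, whereas for Hsp90b1, Pdia3, Pdia4, Pdia6 and Dnajc3 the groups overlap.

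The ER members had no call in either test and a median log2 fold change close to 0, although their library medians of log2 level were higher in both OHT libraries. Hsp90b1, the ER form of Hsp90 known as GRP94, had 3174 and 3465 normalised reads with EtOH and 2985 and 3715 with OHT (limma-voom 0.01 ± 0.21 SE, adjusted p = 0.988). Among the protein disulfide isomerases, which form and rearrange disulfide bonds, Pdia3 had 2051 and 2208 with EtOH and 1996 and 2498 with OHT, and Pdia6 had 1626 and 1687 against 1592 and 1957. Pdia4 varied more between control libraries, at 1780 and 1303 against 1718 and 2179. In all 4 genes the groups overlapped. Limma-voom gave 0.34 ± 0.23 (SE, adjusted p = 0.342) for Pdia4. Pdia5 was lower in both OHT libraries, at 155 and 137 against 192 and 164, without passing (adjusted p = 0.516).

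The ER J-domain proteins, of which those facing the lumen serve the ER Hsp70 BiP, held the highest and the lowest log2 fold change of that compartment. Dnajc10, the disulfide reductase ERdj5, had 2616 and 2053 normalised reads with EtOH and 1267 and 1949 with OHT, so both OHT libraries were lower (limma-voom -0.56 ± 0.25 SE, adjusted p = 0.155). Dnajb9, known as ERdj4, had 279 and 142 with EtOH and 394 and 335 with OHT, so both were higher (limma-voom 0.82 ± 0.31 SE, adjusted p = 0.105). Neither passed the threshold with all 4 libraries, but Dnajc10 did without OHT library B (adjusted p = 0.0497) and Dnajb9 without EtOH library A (adjusted p = 0.0115). Dnajc16 and Dnajb14 were also higher in both OHT libraries, at 373 and 412 against 346 and 173 and at 219 and 240 against 180 and 147; Dnajc16 passed without EtOH library A (adjusted p = 0.0155). Dnajc3, the BiP co-chaperone and kinase inhibitor p58IPK, overlapped at 1523 and 1187 against 1478 and 1437.

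Of the 4 genes with an ER stress element in the sequences printed further up, Hsp90b1, Pdia6 and Dnajc3 had log2 fold changes of 0.01, 0.10 and 0.10 in the authors' deposited table. Hspa5, which encodes BiP, was listed at only 51.2 and 41.7 in the authors' deposited table, from 80 and 26 reads in EtOH and 57 and 30 in OHT. Per kb of transcript that was 30.6 unscaled reads in EtOH library A, against 1355 for Hsp90b1. Hspa5 has 2 RefSeq models and Hsp90b1 has 1. Over all symbols the median summed EtOH mean in the authors' deposited table was 69.3 with 1 RefSeq model and 33.9 with 2 or more, and over members 296 for 45 symbols with 1 model and 148 for 36 with more. Whether reads common to several models were left out or split was not tested, so levels of members with several models are uncertain.

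Among members placed elsewhere, 8 transcripts lay above the floor and 6 of them had a log2 fold change above 0 in the authors' deposited table. Dnajc13, an endosomal J-domain protein, overlapped between the groups at 1398 and 1266 against 1551 and 1236 normalised reads. Dnajc27 was the only one of the 8 whose groups did not overlap, at 251 and 257 with EtOH and 142 and 195 with OHT (limma-voom -0.62 ± 0.27 SE, adjusted p = 0.142).

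The most abundant members share a property of the read counts that moves with their level. In unscaled reads per kb, the densest transcript reached 1798, 1761, 1852 and 1805 in EtOH A, EtOH B, OHT A and OHT B, although the libraries differed in total reads. Among transcripts of under 50 reads per kb the median log2 ratio of reads in EtOH A to EtOH B was 0.94, at 400 to 800 it was 0.46, and at 1200 or more it was 0.04. The log2 ratio of the size factors was 0.65. Hsp90ab1, with 1715, 1564, 1571 and 1590 reads per kb in the 4 libraries, lay close to that upper level. A transcript with the same reads in all 4 libraries would be listed at a log2 fold change of -0.12.

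Of the members, 13 transcripts had at least 800 reads per kb as the mean of the EtOH libraries. They were 6 TRiC/CCT subunits, Hspa9, Hspd1, Hspe1, Hspa8, Hsp90aa1, Hsp90ab1 and Hsp90b1. In all 13, library B was above library A in normalised reads in both groups, as it was for 93.8% of all 353 transcripts of that density with EtOH and 97.2% with OHT. Their median log2 fold change in the authors' deposited table was -0.34, beside -0.20 for the 353, of which 90% lay between -0.75 and 0.20. In unscaled reads, both OHT libraries were below both EtOH libraries for 10 of the 13, beside 44.2% of the 353. The same held for all 7 TRiC/CCT subunits, Cct6a included, whose length was not matched. The parts of this levelling and of the choice by EtOH reads in the fold changes of the dense members were not tested.

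**Figure D4:**
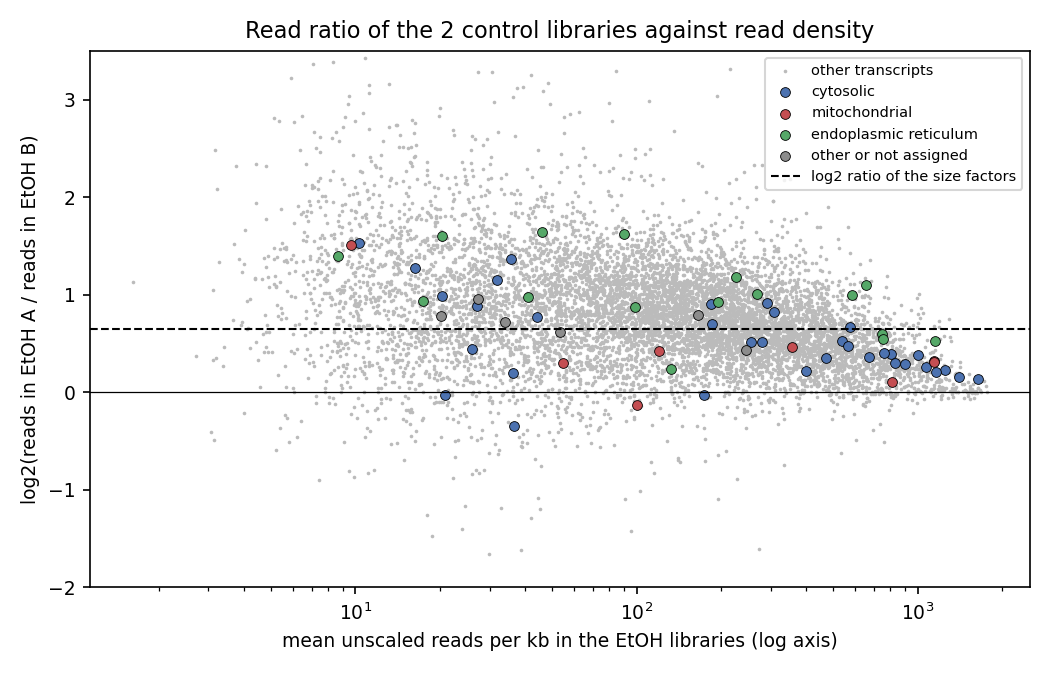
The log2 ratio of reads in EtOH library A to EtOH library B (vertical axis) against mean unscaled reads per kb in the EtOH libraries (horizontal log axis), for transcripts of at least 50 EtOH reads; grey points are other transcripts and coloured points members by compartment. The dashed line is the log2 ratio of the size factors, 0.65; points drop from above it at low density toward 0 at the right, where Hsp90ab1 and Hspa8 lie.

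Genes that work with the members were described from 6 lists. Of the heat shock factors, Hsf1 was at 631 and 412 in the authors' deposited table (log2 fold change -0.62, adjusted p = 0.287) and Hsf2 at 178 and 206, and neither was called. Of 23 co-chaperones of Hsp70 and Hsp90, none was called, beside 5.48% of all transcripts. Below 0 lay 17 of the 23, beside 50.2% of all transcripts above the floor, which were not matched for read level. The median log2 fold change of the 23 was -0.18 in the authors' deposited table. The prolyl isomerase Fkbp4 went from 2048 to 1304 and the kinase adaptor Cdc37 from 1784 to 1570 in the authors' deposited table, without a call. Of 13 chaperonin partners and prefoldin subunits, none was called, beside the same 5.48%. Below 0 lay 11 of the 13, beside the same 50.2%, with a median of -0.21 in the authors' deposited table. For the 20 lectin chaperones and oxidative folding enzymes the median was -0.03 and none was called, beside 5.48% of all transcripts. The oxidase Ero1l went from 4431 to 3778 and the disulfide isomerase P4hb from 3270 to 3526 in the authors' deposited table.

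Mitochondrial folding, import and quality control genes had 1 call lower among 15, beside 1.85% of all transcripts. Of the 15, 14 lay below 0, beside 50.2% of all, with a median log2 fold change of -0.38 in the authors' deposited table. The 50.2% was not matched for read level. Transcripts at 200 to 400 and 400 to 800 reads per kb, binned by EtOH reads alone, had medians of -0.23 and -0.22. The one that fell was Lonp1, the protease of the matrix, which the authors' deposited table gives at 2123 and 1118 (log2 fold change -0.92, adjusted p = 0.0213). Of 27 genes of the unfolded protein response and ER-associated degradation, 3 were called lower, beside 1.85% of all transcripts, and none higher, beside 3.62%. Of the 27, 10 lay above 0 and 17 below, with a median log2 fold change of -0.09 in the authors' deposited table. Both OHT libraries lay above both EtOH libraries for 5, beside 29.3% of all transcripts above the floor. They lay below both for 7, beside 29.2%. The kinase-like stress regulator Trib3 fell from 1797 to 455 (log2 fold change -1.98, adjusted p = 7.73e-10 in the authors' deposited table). The transcription factor gene Ddit3, known as CHOP, fell from 744 to 291 (adjusted p = 0.000244), and the phosphatase subunit gene Ppp1r15a, known as GADD34, from 811 to 391 (adjusted p = 0.00661, both in the authors' deposited table). These 3 act in the branch of the stress response that runs through translation control. On the same list Atf4 (log2 fold change -0.51, adjusted p = 0.710) and Eif2ak3 (0.16) were not called in the authors' deposited table. The 19 ER members above the floor had no call there either, beside 5.48% of all transcripts.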

How the data were processed

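RNA of 4 samples, 2 treated with EtOH and 2 with OHT, was isolated with an RNeasy Plus Micro kit and sequenced from TruSeq RNA v2 libraries, per the labels' protocols. The kit keeps no strand, so a gene and its antisense partner cannot be told apart. TopHat, DESeq and mm9 are named in the submitters' processing notes. Versions, roles and the counting program are not given in the sources used here.

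The authors deposited 1 table of their own comparison. Its signal columns are, per the file headers, base means of normalised reads per group, its ratio column is OHT over EtOH, its log2 column holds the same ratio as log2, and its p-value columns are a p and an adjusted p. The deposited adjusted p equals a Benjamini-Hochberg adjustment over all rows within 2.63e-06. Calls use 0.05.

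Each group mean was solved for the whole reads of its 2 libraries, with 1 read added per library before division by size factors of 1.206 and 0.768 (EtOH) and 1.191 and 0.896 (OHT). All 18061 means per group gave 1 solution (100%), against 0.0720% and 0.0775% of means moved by up to 0.1%. The solved reads, of which transcripts with at least 10 in 2 libraries were kept, were fitted with limma-voom (limma 3.58.1, R 4.3.3). On simulated reads of 11103 transcripts for this comparison, with a dispersion set at 0.05, it recovered 0%, 22%, 98% and 100% of 1.5-, 2-, 4- and 8-fold changes, 50 each, and 5.98% of its 117 calls were false. Lengths for reads per kb matched 97.6% of transcripts and 92 of 93 members (not Cct6a).

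The members, compartments, gene lists and tests were chosen with earlier results of these data known. Named in full are called transcripts, the 3 highest means per compartment, complexes and pairs, and per list up to 4 called genes or the 2 highest means. Alternatives were another threshold, scaling, filters, 1 transcript per symbol and leaving out each library. No column (0) belonged to a sample outside the series.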

Additional observations from a re-analysis of the deposited data

How the results depend on the processing

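In the authors' deposited table, an adjusted p under 0.1 gave 2 member transcripts higher and 2 lower, against 1 and 0 at 0.05. The share of all transcripts called at 0.1 is not given here, so the counts at 0.1 cannot be set against it. Limma-voom on the solved reads gave 2 and 3, beside 9.72% and 5.49% of all transcripts. Of the limma-voom calls, 1 higher and 0 lower were left with quantile normalisation, chosen after seeing the data, beside 9.23% and 5.88% of all transcripts. With scaling to total reads 0 lower were left, beside 4.30%. Leaving out 1 library gave 1 to 3 higher and 0 to 7 lower: the 7 came without EtOH library A and the 0 without OHT library A, where 1075 and 133 of all 11338 transcripts were called lower, and leaving out EtOH library B or OHT library B gave 1 and 3 lower. Hspb1 was called under every limma-voom alternative, at log2 4.40 to 7.37. Under every alternative the compartment median fold changes moved by less than the SD of library medians of log2 level, which is an unlike measure. These median fold changes kept their sign except for the ER one, which was -0.01 without OHT library B. Total-read scaling moved the median of all transcripts from -0.00 to 0.05. When a library is left out, the lone sample of its group is assumed to vary like the other group. No paired analysis was possible because the solved libraries carry no link to the replicate numbers.

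With 2 libraries a group, the fit recovered 0% of 1.5-fold and 22% of 2-fold changes on simulated reads. That simulation had a set dispersion of 0.05 and 117 calls, whereas the data gave 1725 calls, among them Dnajc2 at a log2 fold change of -0.72. Its rates therefore do not measure how often such changes are found in the data. Most differences of TRiC/CCT and mitochondrial members were smaller than 2-fold. Near-identical copies and symbols with several models have uncertain levels.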
